A study of Drosophila melanogaster with 2 samples.

Results

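The genes described here encode the core machinery of transcription: the subunits of RNA polymerases I, II and III, the general transcription factors TFIIA, TFIIB, TFIID, TFIIE, TFIIF and TFIIH, the elongation factor TFIIS, and the Mediator complex. They were chosen by gene symbol alone, as symbols that begin with Taf and a digit, TfII, MED and a digit, or Polr with the number of the polymerase, together with Tbp, Ssl1, hay, Xpd and Cdk7. This rule found 84 genes among 13968 protein-coding genes of Drosophila melanogaster, in 11 complexes. All 84 symbols had the same gene span in the RefSeq annotation. The question asked of them was where the zinc-finger protein CG30431 lies relative to their promoters.

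RNA polymerase I makes ribosomal RNA, RNA polymerase II makes messenger RNA, and RNA polymerase III makes transfer RNA and other small RNAs. At a polymerase II promoter TFIID binds the core promoter through TBP and its associated factors (TAFs), TFIIA and TFIIB stabilise it, TFIIE and TFIIF accompany the polymerase, and TFIIH opens the DNA and phosphorylates the polymerase tail. Mediator passes signals from bound activators to this assembly. Many fly genes lie head to head with a neighbour that is read from the other strand.

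Chromatin immunoprecipitation with sequencing (ChIP-seq) was done on embryos of 0 to 24 h of age, both sexes together. The fly line carried a stable transgene in which GFP was joined to the C-terminus of CG30431, and the antibody was directed at GFP. There was 1 group with 2 biological replicates, both from the same donor line, and no other genotype, age or treatment. The lists therefore report a tagged protein averaged over all cells and a full day of development, and a tag-free control was not analysed here. Peak lists cannot show which cell types the embryos held, so that label was not checked.

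The deposited data are peak lists on the dm6 build. The reproducible list held 3314 peaks, and the pooled list and both replicate lists held 30000 entries each, weak ones included. Each entry has a summit and the authors' own signal value, whose scale is not stated, so signals are compared by rank within a list. No read counts were used, so the depth is unknown, and no test between groups was possible. Intervals in parentheses are exact 95% binomial intervals (Clopper-Pearson) and cover counting error only.

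A peak was assigned to a promoter where its summit lay within 500 bp of any annotated start. By this rule 19 of the 84 genes had a reproducible promoter peak, which is 22.6% (14.2 to 33.0%). Among all protein-coding genes the share was 12.8%. None of the 84 had a reproducible summit in the gene body alone, an upper limit of 4.30%, and the share over all protein-coding genes was 4.43%. Median gene length was 1737 bp where there was a promoter peak and 1451 bp for the other members, against 2164.5 bp for all protein-coding genes. The gene-body share was not adjusted for length. The genes with a promoter peak included Polr2A, Polr2B, Polr2F, Polr2H and Polr2J of polymerase II, Polr3E of polymerase III, Taf2, Taf4 and Taf5 of TFIID, TfIIA-L and TfIIA-S of TFIIA, Ssl1 of TFIIH, and MED4, MED7, MED17, MED27, MED30 and MED31 of Mediator.

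The DNA under some of these summits is shown so that the bases between the starts can be read. The sequences are dm6, 5′ to 3′ on the strand of the named gene, cut to the stretch around the summit that holds no annotated exon, within 100 bp of the summit. The first 4 are the strongest exon-free summits, MED17 carries a DNA replication-related element, and Polr2F carries a cluster of the short core CACTG. Capitals mark each match, on either strand, to a motif that was searched.
Polr3E: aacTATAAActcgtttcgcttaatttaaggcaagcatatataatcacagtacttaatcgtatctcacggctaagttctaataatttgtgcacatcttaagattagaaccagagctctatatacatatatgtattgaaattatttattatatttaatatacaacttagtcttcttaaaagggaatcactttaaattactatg
MED27: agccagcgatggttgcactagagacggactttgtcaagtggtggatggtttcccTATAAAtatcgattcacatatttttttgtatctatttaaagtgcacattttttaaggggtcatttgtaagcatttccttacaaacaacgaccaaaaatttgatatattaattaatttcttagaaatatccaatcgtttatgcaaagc
Polr2B: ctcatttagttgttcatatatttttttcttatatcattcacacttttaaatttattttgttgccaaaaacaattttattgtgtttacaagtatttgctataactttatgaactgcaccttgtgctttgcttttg
MED30: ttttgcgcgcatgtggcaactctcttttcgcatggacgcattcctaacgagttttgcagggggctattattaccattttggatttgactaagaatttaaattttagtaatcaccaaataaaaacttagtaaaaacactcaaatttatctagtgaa
MED17: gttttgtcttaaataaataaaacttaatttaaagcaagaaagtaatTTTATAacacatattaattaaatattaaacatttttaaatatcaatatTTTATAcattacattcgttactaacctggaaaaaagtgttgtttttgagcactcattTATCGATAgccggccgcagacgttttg
Polr2F: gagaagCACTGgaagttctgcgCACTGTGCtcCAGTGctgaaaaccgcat
The stretches are chr3L:21031495-21031695, plus strand for Polr3E, chr3R:5654892-5655092, plus strand for MED27, and chr3R:14125657-14125790, plus strand for Polr2B. Those of the others are chr3L:654208-654362, minus strand for MED30, chr3R:18188894-18189071, plus strand for MED17, and chr3R:5371745-5371794, plus strand for Polr2F. In Polr3E and MED27 the capitals are a TATAAA on the gene's strand, and in MED17 they are TATAAA on the other strand at both TTTATA runs and then the element TATCGATA. No searched motif fell in the Polr2B and MED30 stretches. The Polr2F stretch ends at the base before the start of the gene and is 54.0% G and C, against 24.7% to 34.2% in the other 5. The summits of Ssl1 and Polr2H, which had the highest signal of all members, lie inside annotated 5′ UTRs of the opposite genes and are not printed.

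The strongest site was that of Ssl1, which encodes a subunit of the TFIIH core. Its peak at chr3L:22878714-22879084 had a signal of 1484 in the pooled list, 861 in replicate 1 and 622 in replicate 2. It ranked 3 in the pooled list, 3 in replicate 1 and 4 in replicate 2. The summit lay 211 bp upstream of the Ssl1 start and inside the 5′ UTR of Chro, which encodes Chromator, a chromodomain protein of domain boundaries, and starts 105 bp from Ssl1 on the opposite strand. Chro had the nearer start, 106 bp from the summit, so the same peak was assigned to both genes. A window of 200 bp would not reach Ssl1 and leaves TFIIH with 0 genes. The next member by signal, Polr2H, had 293, so Ssl1 stood far above the rest.

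**Figure D1:**
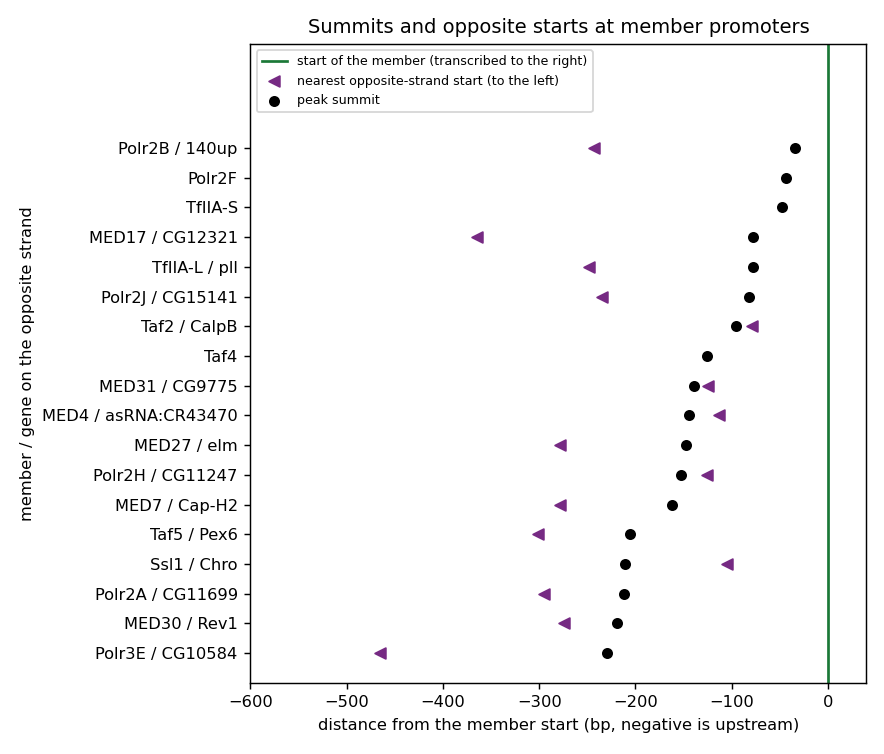
Position of the peak summit (black point) and of the nearest opposite-strand start within 500 bp of the summit (purple triangle) for 18 of the 19 genes. Distances are in bp from the nearest annotated start of the gene (green line at 0), an internal start at Taf4 and TfIIA-L. All are turned so that the gene reads to the right. Every summit shown lies upstream, between 34 and 230 bp, and 3 genes have no triangle (Polr2F, TfIIA-S and Taf4).

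RNA polymerase II had 5 of 13 genes with a promoter peak, 38.5% (13.9 to 68.4%), with a median pooled signal of 197. Polr2A and Polr2B encode the subunits that form the catalytic centre. At Polr2A (chrX:11570356-11570719) the signal was 76.7 in the pooled list, 36.3 in replicate 1 and 39.2 in replicate 2. This was the weakest of the 19 sites, and it ranked 4057 in replicate 1, outside the 3314 strongest entries there. At Polr2B (chr3R:14125666-14125835) the values were 251, 123 and 124 in the same order. In deposited signal replicate 2 was the higher one at both genes, by a small margin. By rank, Polr2A stood at 2464 in replicate 2 against 4057 in replicate 1, and Polr2B at 353 against 674. The Polr2B summit was the nearest of all to a member start, 34 bp upstream, and the opposite gene 140up began 243 bp away. The Polr2A summit lay 212 bp upstream, between the starts of Polr2A and CG11699.

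Polr2F and Polr2H are small subunits that all polymerases share. Polr2H (chr3L:21728702-21728885) had a pooled signal of 293, with 143 in replicate 1 and 151 in replicate 2. Its summit lay 153 bp upstream of Polr2H and 27 bp inside the opposite gene CG11247. Polr2F (chr3R:5371679-5371774) had 170, 91.2 and 77.8, with the summit 44 bp upstream and no opposite start within 500 bp. Polr2J (chr2L:17410306-17410669), a subunit of polymerase II, had 197, 108 and 80.3, and its summit lay between its own start, 82 bp away, and that of CG15141. Of the 5 subunits shared by the polymerases, Polr2E, Polr2K and Polr2L had no reproducible peak. Polr2E had a weak pooled entry of 25.2, Polr2L an entry of 16.6 in replicate 1 only, and Polr2K none.

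RNA polymerase III had 2 of 10 genes with a peak, 20.0% (2.52 to 55.6%). It kept 1 within 200 bp of a start and 1 among the strongest 1657 peaks, but not the same gene. Polr3E was the one among the strongest peaks. At Polr3E (chr3L:21031413-21031776) the pooled signal was 257, with 168 in replicate 1 and 90.6 in replicate 2. The ratio of replicate 1 to replicate 2, 1.85, was the largest of the 19. Its summit lay 230 bp from Polr3E and 235 bp from CG10584, close to the middle of a gap of 465 bp. RNA polymerase I had none of 7 genes with a peak, an upper limit of 41.0%. Polr1D, a subunit shared with polymerase III, had a pooled entry of 42.4 and Polr1F one of 35.9. The catalytic subunits of polymerases I and III, Polr1A, Polr1B, Polr3A and Polr3B, had no entry at a start in any list.

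TFIID had 3 of 16 genes with a peak, 18.8% (4.05 to 45.6%). Their pooled signals lay close together, from 122 to 135. Taf2, which contacts promoter DNA, had 122 in the pooled list, 63.0 in replicate 1 and 50.5 in replicate 2 (chr3L:9888597-9888960). Its summit was 96 bp upstream, 17 bp inside the 5′ UTR of CalpB, a calpain protease gene. Taf4, a scaffold subunit, had 135, 61.7 and 72.7 (chr3L:16113482-16113845). This summit fell in an intron of Taf4 itself, 126 bp upstream of an internal start, and Taf4 had the lowest ratio of replicate 1 to replicate 2, 0.849. Taf5, another scaffold subunit, had 124, 70.9 and 53.3 (chr2R:10879697-10880060), with the summit between its start and that of Pex6, which encodes a peroxisome biogenesis ATPase. Tbp, the subunit that binds the TATA box, had only an entry of 13.6 in replicate 2, 481 bp from the start. Taf10 and Taf10b, which lie head to head with each other 45 bp apart, had no entry in any list.

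TFIIA had 2 of 3 genes with a peak, 66.7% (9.43 to 99.2%), but 0 among the strongest 1657 reproducible peaks. TfIIA-L, the precursor of the large subunits, had 117 in the pooled list, 60.6 in replicate 1 and 53.7 in replicate 2 (chr3R:27253170-27253533). Its summit lay 78 bp upstream of an internal start, within an intron, and 170 bp from the start of pll, which encodes the kinase Pelle of Toll signalling. TfIIA-S, the small subunit, had 97.2, 51.8 and 36.6 (chr3R:23890926-23891289) and a summit 48 bp upstream, with no opposite start nearby. The paralogue TfIIA-S-2 had no entry. Beside Ssl1, the TFIIH genes hay and Cdk7, a helicase and the kinase of the complex, had weak entries of 17.1 and 15.4 in replicate 1. Xpd, the other helicase, had no entry at a start. TfIIB, both TFIIE genes and both TFIIF genes had none, and TfIIS had an entry of 18.3 in replicate 2.

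**Figure D2:**
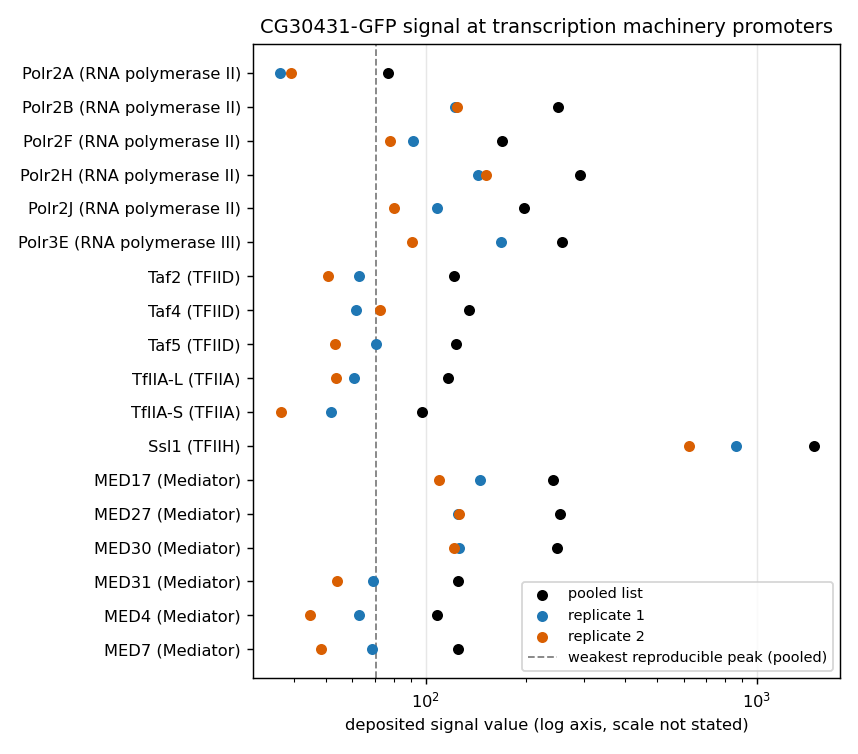
Deposited signal value (log axis, scale not stated) at 18 of the 19 promoter summits in the pooled list (black), replicate 1 (blue) and replicate 2 (orange), with the weakest reproducible peak as a dashed line. Ssl1 stands apart at 1484, and the other pooled values run from 76.7 to 293.

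Mediator had 6 of 25 genes with a peak, 24.0% (9.36 to 45.1%). The pooled signals fell into a higher and a lower set. MED27 had 254 in the pooled list, 125 in replicate 1 and 126 in replicate 2 (chr3R:5654957-5655068). MED30 had 249, 126 and 122 (chr3L:654237-654382). MED17, a scaffold of the head module, had 242, 145 and 109 (chr3R:18188913-18189090). These 3 summits lay between the gene and its opposite neighbour, which is elm for MED27, Rev1 for MED30 and CG12321 for MED17. Rev1 encodes a translesion DNA polymerase.

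The other 3 encode subunits of the middle module. MED31 had 125, 69.1 and 53.8 (chr3R:4641642-4642005). MED7 had 125, 68.9 and 48.3 (chr3R:10761012-10761375). MED4 had 108, 62.9 and 44.6 (chr3L:7250489-7250852), and replicate 1 had the higher deposited signal at all 3. The MED31 summit was 14 bp inside the 5′ UTR of CG9775, and slx1, an endonuclease gene, is annotated from the same start as MED31 on the same strand. The MED7 summit lay between MED7 and Cap-H2, which encodes a condensin II subunit. The start opposite MED4 was that of a noncoding RNA, asRNA:CR43470.

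**Figure D3:**
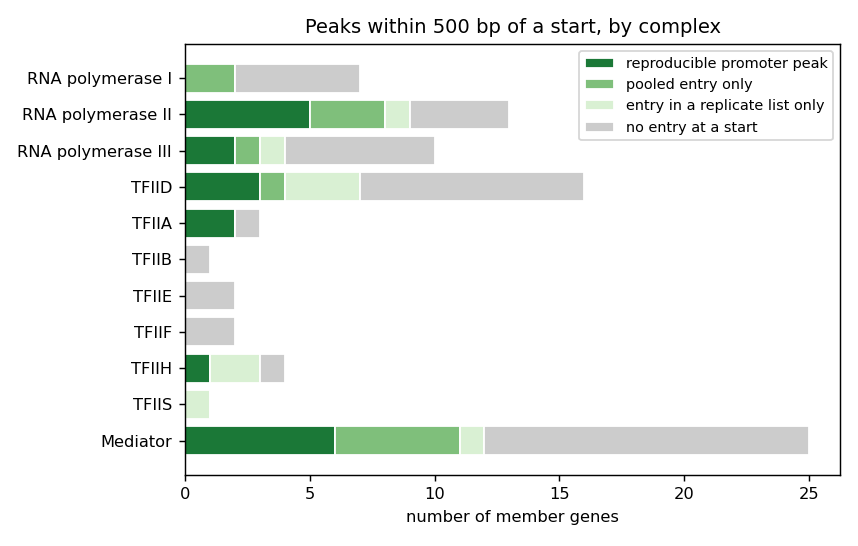
Number of genes in each complex by the strongest kind of entry within 500 bp of a start: reproducible peak, pooled entry only, entry in a replicate list only, or none. Polymerase II has 5 of 13 genes and Mediator 6 of 25 genes with a reproducible peak, and polymerase I has none of 7.

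The intervals of the complexes overlapped widely, so no order among them was resolved at these numbers. The median pooled signal of the 19 sites was 135, with a range of 76.7 to 1484. For all protein-coding genes with a promoter peak it was 143, and for all reproducible peaks 121. The summit was in the 3314 strongest entries of both replicates at 18 of 19 genes, the exception being Polr2A. In deposited signal, replicate 1 exceeded replicate 2 at 14 of 19, the exceptions being Polr2A, Polr2B, Polr2H, Taf4 and MED27. The median signal ratio was 1.28 (range 0.849 to 1.85), against 1.34 over 3267 reproducible peaks with both values. By rank within each list the direction was the other one. The median rank was 1615 in replicate 1 and 1005 in replicate 2, and a lower rank is stronger. With scale and depth unknown, these values do not show which replicate had more binding.

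All 19 summits were upstream of the nearest annotated start of the member, which at Taf4 and TfIIA-L was an internal start. Over all protein-coding genes with a promoter peak 89% were upstream. The median distance, 144 bp, was close to the 145 bp of those genes. An opposite-strand start of another gene lay within 500 bp of the summit at 16 of 19 genes, 84.2% (60.4 to 96.6%), against 58.5%. With both distances held to 200 bp it was 9 of 14, 64.3% (35.1 to 87.2%), against 41.0%, a value inside the interval. All 16 pairs were head to head, 15 of the partners code for protein, and the summit lay between the starts in 11. The same shares over all protein-coding genes are not given here, so these counts describe the 16 pairs only. At Polr2H, Taf2, Ssl1, MED4 and MED31 the summit lay past the partner start, inside the partner gene. The member had the start nearest to the summit in 8 of 19 cases, 42.1% (20.3 to 66.5%), against 69.8% of all genes with a promoter peak. At the shared promoters alone it was 5 of 16, 31.2% (11.0 to 58.7%), against 48.9%, a value inside the interval. A peak at a shared promoter cannot be assigned to one of its genes from these lists.

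The layout of the promoters differed between the 84 genes and the rest of the genome. An opposite-strand start lay within 1000 bp upstream of 60 of the 84 genes, 71.4% (60.5 to 80.8%), against 39.6% of all protein-coding genes. Among these 60 genes 17 had a promoter peak, 28.3% (17.5 to 41.4%), against 22.4% of all genes with such a start. Among the other 24 genes 2 had one, Polr2F and TfIIA-S, 8.33% (1.03 to 27.0%), against 6.47%. Both intervals include the value of all genes of the same layout. Within each layout, the share of the transcription genes did not differ from that of all genes beyond counting error.

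The gap between the opposite starts was described after the gaps of the 84 genes had been seen. Here the gap is the smallest one over all annotated starts of both genes, so at a gene with several starts it can differ from that at the summit. Where it was under 100 bp, 1 of 13 genes had a peak, 7.69% (0.195 to 36.0%), against 19.7% of all such protein-coding genes. The gene was Taf2. The others were Polr1A, Polr1C, Polr2D, Taf10, Taf10b, Taf12, MED6, MED10, MED18, MED20, MED23 and MED28. Taf10 and Taf10b are each other's opposite gene and share a promoter, but the interval counts them as separate genes. MED20 lies 47 bp from Trf, the gene of a TBP-related factor. Where the gap was 100 to 1000 bp, 16 of 47 had a peak, 34.0% (20.9 to 49.3%), against 22.9%. The share was highest at gaps of 200 to 299 bp, with 7 of 15 genes, and in this class it was also highest over all protein-coding genes, at 32.4%.

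**Figure D4:**
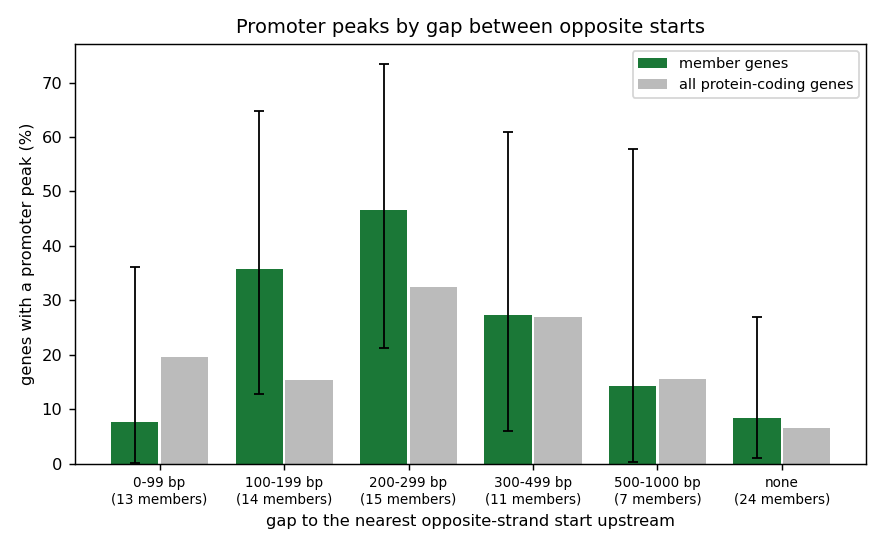
Percentage of genes with a reproducible promoter peak, by gap to the nearest opposite-strand start upstream, for the 84 genes (green, with exact 95% binomial intervals) and all protein-coding genes (grey). The intervals overlap across classes, and the class of 200 to 299 bp is the highest for both, at 46.7% and 32.4%.

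The remaining 65 genes were looked up in the weaker lists. A pooled entry lay within 500 bp of a start at 12 of them, 18.5% (9.92 to 30.0%), against 25.4% of all protein-coding genes without a reproducible peak. With the replicate lists added the count was 21, 32.3% (21.2 to 45.1%), against 40.4%, and both intervals include the value of all genes. The strongest were at MED16, a tail subunit, with 65.1, and at MED6, of the head module, with 63.3. The weakest reproducible peak had 70.8, so both lay just outside, as Polr2A with 76.7 lay just inside. Polr2I, which is head to head with the insulator gene su(Hw), had 50.4, MED21 had 46.2, MED19 39.2, MED8 37.6, Polr2C 37.6, and Taf11 34.6. Polr3F had 26.4. Of the 12 entries 7 overlapped an entry in both replicate lists, and the same share over all genes is not given here.

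The 9 genes with an entry at a start in a replicate list only were Polr2L, Polr3D, Taf7, Taf13, Tbp, Cdk7, hay, TfIIS and MED22. For 8 of them the entry was in 1 replicate, at a signal of 13.6 to 18.3. Taf7 had entries in both, with 53.0 in replicate 1 and 38.4 in replicate 2. A further 16 genes had only weak entries inside the gene, and 28 had no entry in any list. The latter were Polr1A, Polr1E, Polr1H, Polr2G, Polr2K, Polr2M, Polr3B, Polr3C, Polr3G, Polr3I, Taf3, Taf8, Taf9, Taf10, Taf10b, Taf12L, TfIIA-S-2, TfIIB, TfIIEalpha, TfIIFalpha, TfIIFbeta, MED1, MED10, MED11, MED14, MED18, MED26 and MED28. These classes hold 19.0% and 33.3% of the 84 genes. Their shares over all protein-coding genes are not given here, so the counts describe the 84 genes only. Since depth is unknown, absence from a list does not set a limit on binding.

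The distance rule decided MED15, a tail subunit. A reproducible summit of signal 252, with 136 in replicate 1 and 117 in replicate 2, lay 529 bp upstream of it. Its signal was close to that of the MED27 site, but it lay outside the window. The start nearest to this summit was that of CG4297, on the opposite strand. A reproducible peak also overlapped the 3′ end of Taf12 with its summit 86 bp beyond the gene, so it was not counted.

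Short motifs were counted within 100 bp of each of the 19 summits, on both strands. The core CACTG and the 8-base words CACTGTGC, CACAGTGG, CACTGAGA and TACACTGA came from an earlier pass over these data. Each of these words holds CACTG on one strand or the other, so the counts are not independent. CACTG was in 5 windows, 26.3% (9.15 to 51.2%), against 45.3% of 1466 promoter summits and 32.9% of 19276 windows upstream of coding starts. Polr2A and Polr2F held 4 matches each, Polr2H 2, and Polr2J and MED7 1 each. CACTGTGC was in Polr2F alone, printed above, with its centre 19.5 bp past the summit, against 5.18% of promoter summits and 1.19% of upstream windows. CACAGTGG, CACTGAGA and TACACTGA had no match, against 5.46%, 2.18% and 2.18% of promoter summits and 1.07%, 0.617% and 0.534% of upstream windows.

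Known promoter elements were searched in the same windows. The DNA replication-related element TATCGATA was in MED17 and MED7, 10.5% (1.30 to 33.1%), against 4.23% of promoter summits and 6.20% of upstream windows. The E-box CAGCTG was in 4 windows, among them those of Polr2A, Taf5 and MED30, 21.1% (6.05 to 45.6%), against 10.3% and 12.0%. CANCNCTA, the core of Ohler motif 7, was in TfIIA-S, MED17 and MED31, 15.8% (3.38 to 39.6%), against 14.3% and 9.17%. TATAAA was in 7 windows, 36.8% (16.3 to 61.6%), against 38.3% and 33.6%. GGTCACACT, taken from core promoter Motif 1, had no match, against 2.32% and 2.47%. Each interval includes the share of promoter summits. Median G and C content was 33.8% at the 19 summits, 35.3% at all promoter summits and 38.8% in the upstream windows.

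**Figure D5:**
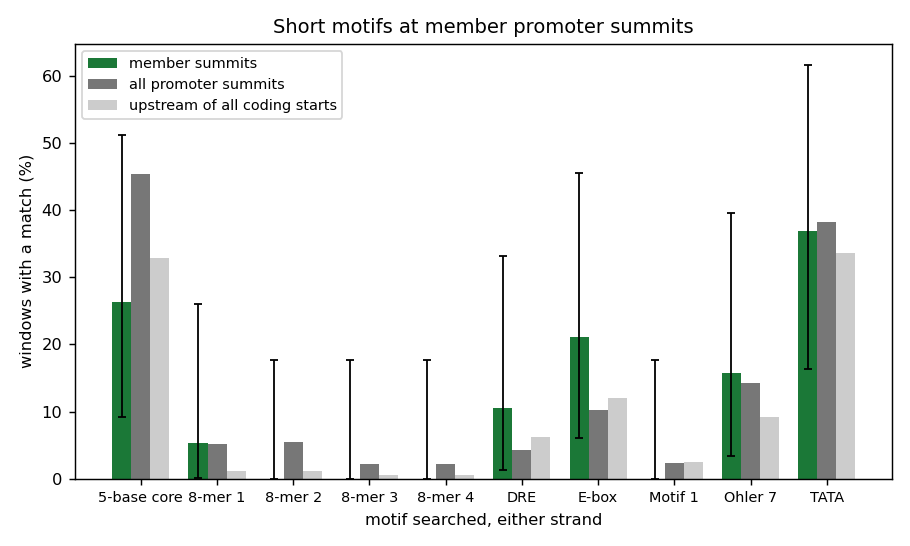
Percentage of windows (all bases within 100 bp of the summit) that hold each motif at the 19 summits (green, with exact 95% binomial intervals), at all promoter summits (dark grey) and upstream of all coding starts (light grey). The 8-mers 1 to 4 are CACTGTGC, CACAGTGG, CACTGAGA and TACACTGA. Every interval at the 19 summits includes the dark grey value.

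Other transcription genes, in lists that do not follow the symbol rule, gave 16 of 58 genes with a promoter peak, 27.6% (16.7 to 40.9%), against 12.8% of all protein-coding genes. Taken singly, the interval of each list included 12.8%, except that of the elongation and pausing factors (13.9 to 54.9%), and no test was run. None of 5 further TFIIH subunits and none of 6 TBP-related factors and testis TAFs had one. The Mediator kinase module had 1 of 4 (skd, 94.4). The coactivator SAGA had 5 of 15 (Gcn5, its acetyltransferase, with 251, then wda 179, Ada2b 174, Ada3 128 and Spt3 105). Polymerase III initiation factors and the small nuclear RNA activator had 3 of 6 (Bdp1 509, Brf 309 and Pbp95 75.5). Elongation and pausing factors had 7 of 22 (bin3 344, TH1 264, Nelf-E 219, dre4 106, Nelf-A 97.9, lilli 94.4 and Spt6 76.6). Bdp1 and Brf, subunits of the factor that recruits polymerase III, thus had higher signals than any polymerase III subunit here. An opposite-strand start lay within 500 bp of the summit at 13 of the 16, against 58.5% of all protein-coding genes with a promoter peak. The 12.8% is not matched for layout. Over all protein-coding genes the share was 22.4% with an opposite-strand start within 1000 bp upstream and 6.47% without. A split of the 58 genes by layout is not given here.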

How the data were processed

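Per the deposited readme, peaks were listed for each replicate against a control and for the replicates pooled, and the irreproducible discovery rate then gave the reproducible list. For the aligner, peak caller and cutoff, names were not given in the sources used here. Entries carry a deposited signal value, of unstated scale, and the authors' −log10 of a q-value, which was 2.50 to 3.57 at the 19 peaks. The reproducible list is exactly the 3314 strongest pooled entries. Replicate values are those of the strongest entry that holds the summit. Depth is unknown.

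Genes came from Ensembl release 115 (BDGP 6.54), which left 18277 genes with 23694 starts once transposable elements were removed. The members and lists were chosen with earlier results of these data known. The text names the members with a reproducible promoter peak, of which 1 is counted but not reported here, the 10 strongest weaker entries and list genes with a peak. Other genes were named after their values were seen, as were the sequences shown. Of 68 listed names 10 matched no symbol. Alternatives were other windows, any overlap, the strongest peaks, single replicates and coding starts. The assignment of summits to genes was tested on simulated data. Python 3.11.15, numpy 2.4.6, pandas 2.3.3, scipy 1.17.1 and matplotlib 3.10.9 were used.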

Additional observations from a re-analysis of the deposited data

How the results depend on the processing

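The number of members with a promoter peak was 14 within 200 bp, 20 within 1000 bp, 20 by any overlap, 14 in the strongest 1657 peaks and 19 with coding starts only, against 19. The 200 bp window lost Polr2A, Polr3E, Taf5, Ssl1 and MED30, the wider ones gained MED15, and the stronger set lost 5, among them Polr2A, TfIIA-L, TfIIA-S and MED4. All protein-coding genes with a promoter peak fell to 1153 within 200 bp and 1067 in the stronger set. They numbered 2103 within 1000 bp and 1926 by any overlap. The share of members was 16.7% against 8.25% of all genes within 200 bp, and 23.8% against 15.1% within 1000 bp. By any overlap it was 23.8% against 13.8%, and in the stronger set 16.7% against 7.64%. Shared divergent promoters fell to 9 of 14 within 200 bp, 64.3% against 41.0% of all genes with a peak. The other transcription genes fell to 9 within 200 bp and in the stronger set. Polymerase III fell to 1 under each, though not the same gene, TFIIH to 0 within 200 bp and TFIIA to 0 in the stronger set. Any overlap gave 1 gene-body case, Taf12. The median signal was 130 within 200 bp, 152 within 1000 bp or by any overlap and 220 in the stronger set, and 63.3 to 70.9 from the strongest entries of a single replicate (the cause was not tested). A single replicate gave 19 to 20 members, with Taf7 gained in both and Polr2A lost without replicate 2. Weaker pooled entries numbered 12, of which 9 were in the strongest 10000 entries, and 7 when an entry in both replicate lists was required. With 50 bp on each side of the summit CACTG was in 15.8% of member windows and 21.6% of all promoter summits. No paired analysis was possible because there was 1 group. Unknown depth limits every statement on genes without an entry.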

Other observations

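The values below were noticed after the data were seen, and no test was run on them. CACTG was in the window of 4 of the 5 polymerase II genes with a peak and in 1 of the other 14. Among all promoter summits the share was 45.3%. The only match at Polr2J was centred 95 bp from the summit, near the edge of the window. With 50 bp on each side, 3 member windows held a match. On chromosome arms 3L and 3R 16 of 46 members had a promoter peak, and elsewhere 3 of 38, while the shares of all protein-coding genes were 14.0% on 3L, 13.4% on 3R, 13.1% on 2L, 10.9% on 2R and 12.7% on X.

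Taf7, a TFIID subunit, had an entry of rank 2475 in replicate 1 and of rank 2540 in replicate 2, within the 3314 strongest of each, but no pooled entry within 3000 bp of the gene. Of 2698 entries among the 3314 strongest of replicate 1 that overlapped one of the 3314 strongest of replicate 2, 16 overlapped no entry of the pooled list used here. The cause was not tested.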
